A study of Mus musculus with 4 samples.

Results

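The genes described here are 35 enzymes of amino acid metabolism, chosen as a list of symbols with earlier results of these data known. All were found among the 24582 genes that the deposited tables hold between them. They were measured by sequencing nuclear RNA, nucleus by nucleus, in kidney (cortex together with outer medulla) of male C57BL/6 mice. The untreated group is called CT9w. The group called Cis9w received 4 injections of cisplatin at 8 mg/kg, 1 each week, and its kidneys were collected 9 weeks after the first. Cisplatin, a platinum compound used against tumours, is toxic to proximal tubule cells. Each group had 2 samples, for 4 in all, and the labels name no genetic change in either group and no vehicle for the untreated mice.

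All values are pools over nuclei that carry no sample label, so there is no spread between animals, and the sources do not say how many libraries entered each pool. One table gives proximal tubule nuclei of CT9w and of Cis9w, and the labels of the replicate-1 samples name it. The other gives 17 clusters of nuclei with both groups together, and the labels of the replicate-2 samples name it. Of the 35 enzymes, 34 were listed in the first table and 35 in the second. An average is a mean of unique molecular identifiers (UMIs, counted RNA molecules) per nucleus after the authors' scaling. Values in brackets after a ratio are its 95% interval from the 2 UMI sums (Clopper-Pearson); bars on single levels are exact Poisson intervals. Both cover counting error only. A gene is called when its p in the authors' deposited table is under 0.05.

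The proximal tubule reabsorbs nearly all filtered amino acids and also breaks many of them down. Its cells degrade proline, glycine and D-amino acids, make guanidinoacetate for creatine, turn glutamine and glutamate into ammonium, and decarboxylate L-DOPA to dopamine. These reactions are divided along the tubule, from the first segment (S1), next to the glomerulus, through the second (S2) to the third (S3), which reaches into the outer medulla. Many of the enzymes are mitochondrial or peroxisomal and are shared with the liver.

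The pools were deep enough for most of these genes. The CT9w pool held 5123727 UMIs and the Cis9w pool 8557662, 1.67 times as many. A total of 3 UMIs corresponded to an average of 0.00164 in CT9w and 0.000981 in Cis9w. The 17 clusters held from 254460 to 7425098 UMIs. As examples of segment markers, the first-segment transporter gene Slc5a12 averaged 14.7 in PT-S1 and 0.119 in PT-S3-2. The third-segment transporter gene Slc7a13 averaged 0.0567 and 5.08 in the same clusters. These nuclei also made the clusters, so the markers are no independent check of the segment names.

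Most of the enzyme genes had their highest level in the proximal tubule. In 27 of the 35 the largest of the 17 averages lay in a cluster that the authors named for proximal tubule (PT), against 24.5% of all genes at the expression floor, which is the median over genes of the mean level. Of the 35 enzymes, 31 reached that floor. Bhmt and Agmat, counted in the 27, did not, so the count and the share are not matched for level. The clusters were made from the same nuclei, so every comparison of clusters here is a description and not a test. PT-S3-2 had the largest average for 10 of the enzymes, PT-S1 for 7, PT-S2/S3 for 5, PT-S3-1 for 3 and PT-S2 for 2. PT-injury/repair had the largest average for 0 of them. The level over the 11 clusters outside PT was a median 16.4% of that over the PT clusters. Free RNA in droplets gives a low level of abundant tubule RNA in other nuclei, and the tubule phosphate transporter gene Slc34a1 stood at 8.57% by the same measure. Of the enzymes, 13 were at or below that share: Hpd, Hgd, Dao, Kynu, Aadat, Gldc, Bhmt2, Dmgdh, Agxt2, Bcat1, Agmat, Pter and Dpys. Whether their pooled level outside PT is free RNA was not tested. The pooled share does not settle single clusters: Kynu averaged 0.193 in Immune cells on 35 UMIs, against 0.401 over the PT clusters.

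**Figure D1:**
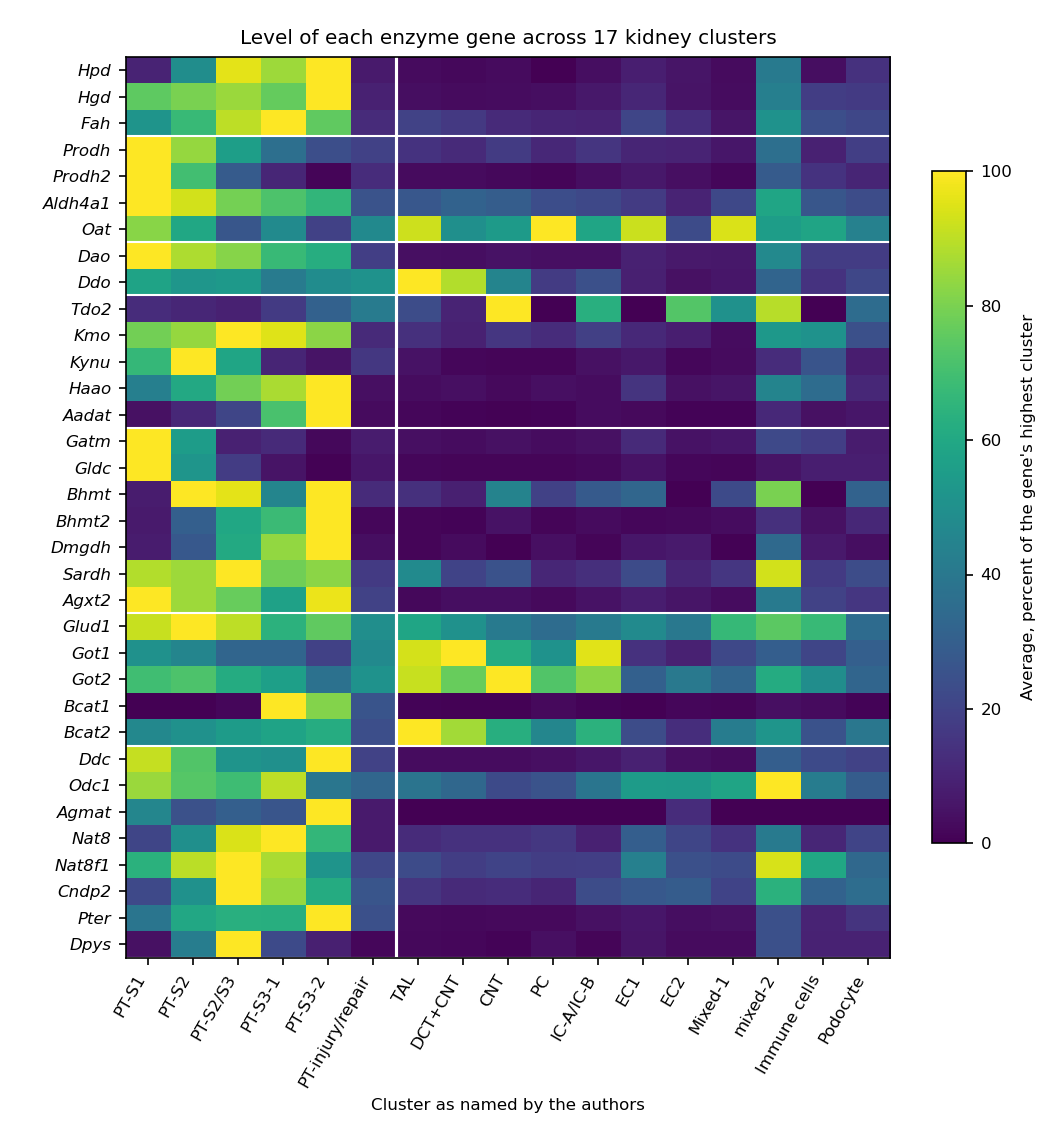
Each row is an enzyme gene with at least a UMI in a PT cluster, and each column is a cluster as the authors named it, with the PT clusters left of the white line. Colour is the average as a percent of that gene's own highest cluster. Most rows are bright on the left only, Gatm and Gldc toward PT-S1 and Bcat1 and Aadat toward PT-S3-2, while Ddo, Got1, Got2 and Bcat2 are brightest on the right.

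The 8 enzymes with their highest level elsewhere included the aspartate aminotransferases and an oxidase of D-aspartate. Got1 and Got2, the cytosolic and mitochondrial aspartate aminotransferases, were highest in DCT+CNT (0.185) and in CNT (0.192), the distal convoluted and connecting tubule clusters. Bcat2, the mitochondrial branched-chain aminotransferase, was highest in TAL, the thick ascending limb, at 0.197 against 0.0919 to 0.122 in PT-S1 to PT-S3-2. Ddo, the peroxisomal D-aspartate oxidase, also peaked in TAL at 0.901 and in DCT+CNT at 0.797, with 0.373 to 0.523 in the same 5 PT clusters. In contrast, Dao, which oxidises neutral D-amino acids such as D-serine, averaged 0.741 in PT-S1 and 0.0304 in TAL. The D-amino acid oxidases thus had different places of highest level in these pools. The highest averages of the remaining 4 rested on at most 15 UMIs each. Oat, ornithine aminotransferase, peaked in PC (0.0284), Tdo2, tryptophan dioxygenase, in CNT (0.00884), and Tat, tyrosine aminotransferase, had 1 UMI in all, in DCT+CNT. Odc1, ornithine decarboxylase, averaged 0.118 in mixed-2 on 15 UMIs, close to its 0.101 in PT-S1 on 272 UMIs and 0.107 in PT-S3-1.

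Within the proximal tubule the enzymes fell into 3 patterns along the segments. Of the 34 with a UMI in PT clusters, 12 averaged at least 2 times as much in PT-S3-2 as in PT-S1, 8 at most 0.5 times as much, and 14 lay between. Over all genes at the floor, 12% were at least 2-fold higher in PT-S3-2 and 11.1% at least 2-fold lower. Among the 31 enzymes at the floor, 9 were at least 2-fold higher in PT-S3-2, 8 at least 2-fold lower and 14 between. In the authors' deposited table, which compares each cluster with all other nuclei, 9 of 35 enzymes were called higher in PT-S1 (2.9% of all genes) and 9 lower (9.77%). In PT-S3-2, 10 were called higher (3.62% of all genes) and 6 lower (7.5%). In TAL, as a segment outside PT, 2 were called higher (5.27%), Ddo and Got1, and 21 lower (5.52%). These shares of calls are over all 24468 listed genes with no floor, while 31 of the 35 enzymes were at the floor.

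The 8 enzymes at least 2-fold lower in PT-S3-2 than in PT-S1 were Gldc, Gatm, Prodh2, Prodh, Kynu, Got1, Oat and Odc1. Gldc, the decarboxylating subunit of the glycine cleavage system, averaged 1.17 in PT-S1, 0.609 in PT-S2, 0.209 in PT-S2/S3, 0.0602 in PT-S3-1 and 0.00823 in PT-S3-2. It was thus 142-fold higher in PT-S1 than in PT-S3-2 (86.1 to 254). Gatm, which joins arginine and glycine in the opening step of creatine synthesis, averaged 1.49, 0.825, 0.135, 0.179 and 0.034 over the same clusters. It was 43.7-fold higher in PT-S1 than in PT-S3-2 (34.0 to 57.2). Prodh2, hydroxyproline dehydrogenase, had 0.603, 0.420, 0.174, 0.0647 and 0.00933, or 64.6-fold (40.2 to 111). Its relative Prodh, proline dehydrogenase, declined more gently, from 0.475 to 0.114. Aldh4a1, which takes up the product of both, was not among the 8, at 0.390 and 0.257. Kynu, kynureninase, differed from them in its peak: it averaged 0.494 in PT-S1, 0.742 in PT-S2, 0.436 in PT-S2/S3, 0.0767 in PT-S3-1 and 0.039 in PT-S3-2. Got1, Oat and Odc1 had lower levels, from 0.0934 to 0.0357, from 0.0233 to 0.00549 and from 0.101 to 0.0467 between PT-S1 and PT-S3-2.

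The 12 enzymes at least 2-fold higher in PT-S3-2 than in PT-S1 were Bcat1, Aadat, Bhmt2, Bhmt, Dmgdh, Hpd, Nat8, Cndp2, Pter, Tdo2, Haao and Agmat. Of these, Tdo2 rested on 5 UMIs in PT-S3-2 and 3 in PT-S1. With PT-S3-1 in place of PT-S3-2 the count was 10: Tdo2, Pter and Agmat dropped out and Dpys came in. Bcat1, the cytosolic branched-chain aminotransferase, was low in the earlier segments. It had 3 UMIs in PT-S1 (average 0.00111), 2 in PT-S2 and 23 in PT-S2/S3, against 246 in PT-S3-1 (0.370) and 549 in PT-S3-2 (0.301), a ratio of 271 between PT-S3-2 and PT-S1 (92.3 to 1319). Bcat2, which catalyses the same reaction in mitochondria, had a ratio of 1.33 (1.10 to 1.60) between the same clusters. Aadat, which makes kynurenic acid from kynurenine and also transaminates aminoadipate from lysine, averaged 0.0985, 0.237, 0.447, 1.54 and 2.16 from PT-S1 to PT-S3-2. Hpd, the second enzyme of tyrosine breakdown, averaged 0.0152 in PT-S1 and 0.155 in PT-S3-2. Hgd and Fah, which act after it, were spread along the tubule, with ratios of 1.33 and 1.46.

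Bhmt2 and Dmgdh had similar patterns along the tubule and are neighbours in the genome. Bhmt2, which methylates homocysteine, averaged 0.0363, 0.154, 0.304, 0.349 and 0.512 from PT-S1 to PT-S3-2. Dmgdh, dimethylglycine dehydrogenase, averaged 0.0245, 0.0892, 0.197, 0.272 and 0.325, so the order of the clusters was the same for both. Their ratios of PT-S3-2 to PT-S1 were 14.1 (11.4 to 17.5) and 13.3 (10.3 to 17.4). Sardh, the next enzyme of that chain, was level along the tubule at a ratio of 0.935. Bhmt, on 92 UMIs in all clusters, averaged 0.00988 in PT-S3-2 and nearly the same, 0.00986, in PT-S2. In RefSeq's GRCm38.p6 annotation the Bhmt2 and Dmgdh genes start 134 bases apart and run in opposite directions. This was the only divergent pair with both genes among the enzymes. In all, 12.3% of 27025 RefSeq genes and 6 of the 32 enzymes with a RefSeq start had a divergent neighbour within 1000 bases. The stretch between the genes is shown because both flanking genes had higher averages toward PT-S3-2. It is chr13:93674303-93674432 of GRCm38, plus strand, with its 6 CpG sites in capitals and 70.8% G or C:
Bhmt2-Dmgdh: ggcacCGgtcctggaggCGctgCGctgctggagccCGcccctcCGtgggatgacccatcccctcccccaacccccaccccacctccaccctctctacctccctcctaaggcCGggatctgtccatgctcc

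Upstream sequence is shown next for Gldc, Prodh2 and Gatm, the 3 enzymes with the steepest decline toward PT-S3-2, and for Bcat1 and Hpd, which were higher there. Aadat and Bhmt, both steeper than Hpd, had only 58 and 47 of the upstream bases outside the annotated gene, and Bhmt2 and Dmgdh share the stretch above. The sequences are from RefSeq's GRCm38.p6 table, taken from the 250 bases before the start and kept outside the annotated gene, each 5′ to 3′ on the gene's own strand. RefSeq entries matched 32 of the 35 enzymes, all but Kynu, Cndp2 and Dpys. Capitals mark matches, on either strand, to GTTAAT (part of an HNF1 site), CAAAGNNCA (the core of an HNF4 site), TATAAA (a core promoter element), TGANTCA (an AP-1 site) or CCAAT (a frequent promoter element), which do not overlap here. HNF1 and HNF4 factors are known regulators of proximal tubule genes. The Gldc stretch is chr19:30175442-30175691 on the minus strand, that of Gatm chr2:122611304-122611527 (minus) and that of Prodh2 chr7:30493408-30493621 (plus). The Bcat1 stretch is chr6:145076185-145076407 and the Hpd stretch chr5:123182728-123182973, both minus.
Gldc: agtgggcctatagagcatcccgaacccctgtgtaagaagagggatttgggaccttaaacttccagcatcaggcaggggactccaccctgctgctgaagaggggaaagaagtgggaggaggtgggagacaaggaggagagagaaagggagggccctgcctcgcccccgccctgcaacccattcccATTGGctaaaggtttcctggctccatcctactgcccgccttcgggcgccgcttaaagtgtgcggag
Gatm: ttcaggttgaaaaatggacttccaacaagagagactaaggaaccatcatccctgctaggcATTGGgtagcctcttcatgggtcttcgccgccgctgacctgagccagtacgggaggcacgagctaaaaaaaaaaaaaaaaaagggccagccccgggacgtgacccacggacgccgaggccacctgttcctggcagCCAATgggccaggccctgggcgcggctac
Prodh2: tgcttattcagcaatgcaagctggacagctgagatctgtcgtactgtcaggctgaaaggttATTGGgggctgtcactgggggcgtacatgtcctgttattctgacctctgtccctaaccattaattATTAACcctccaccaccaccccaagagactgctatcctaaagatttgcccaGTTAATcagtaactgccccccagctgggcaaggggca
Bcat1: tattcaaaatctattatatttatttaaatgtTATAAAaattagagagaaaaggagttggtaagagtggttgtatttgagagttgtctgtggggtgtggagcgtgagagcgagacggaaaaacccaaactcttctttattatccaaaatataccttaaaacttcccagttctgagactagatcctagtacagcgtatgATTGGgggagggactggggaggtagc
Hpd: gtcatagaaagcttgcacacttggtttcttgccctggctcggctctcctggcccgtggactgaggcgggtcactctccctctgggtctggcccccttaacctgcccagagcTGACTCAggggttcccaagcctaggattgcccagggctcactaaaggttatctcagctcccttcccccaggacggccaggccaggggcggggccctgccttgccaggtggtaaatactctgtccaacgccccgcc

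In the stretches shown, Prodh2 had 2 matches to GTTAAT and 1 to CCAAT, Gatm had 2 to CCAAT and Gldc 1. Bcat1 had 1 match to TATAAA and 1 to CCAAT, and Hpd had 1 to TGANTCA. Aadat, not shown, had 1 match to CAAAGNNCA in its 250 upstream bases. Over the full 250 bases upstream of each start, GTTAAT occurred in 4 of the 32 enzymes and 7.49% of all RefSeq genes. CAAAGNNCA occurred in 7 of 32 and 6.29%, TATAAA in 6 and 14.3%, TGANTCA in 3 and 7.82%, and CCAAT in 15 and 37.5%. A match says only that the letters are there.

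The remaining enzymes that differed along the tubule were scattered over roles. Haao, which forms the precursor of quinolinate from hydroxyanthranilate, averaged 0.121 in PT-S1 and 0.281 in PT-S3-2. Pter, a hydrolase of N-acetyltaurine, averaged 1.77 and 4.57 in the same clusters. Cndp2, a cytosolic dipeptidase, and Nat8, which acetylates cysteine conjugates, had ratios of 2.77 and 3.15. Dpys, the dihydropyrimidinase of pyrimidine breakdown, stood apart with its peak in PT-S2/S3, at 0.226 against 0.0104 in PT-S1 and 0.0198 in PT-S3-2. Glud1 (glutamate dehydrogenase), Kmo (kynurenine monooxygenase), Ddc (aromatic amino acid decarboxylase, the maker of renal dopamine), Nat8f1 and Agxt2 (an aminotransferase that degrades dimethylarginine) lay within 2-fold between PT-S1 and PT-S3-2.

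In nuclei of the PT-injury/repair cluster most of these enzymes were low. Of the 34, 27 averaged at most 0.5 times as much there as over the other 5 PT clusters, and 15 at most 0.2 times as much. Over all genes at the floor 11.1% were at least 2-fold lower in that cluster and 21.5% at least 2-fold higher. The 27 include Bhmt and Agmat, which lay below the floor and had 1 UMI each in PT-injury/repair. The median ratio was 0.259 for the enzymes at the floor and 1.13 for all such genes. The cluster is marked by Havcr1, kidney injury molecule 1, at 0.346 UMIs per nucleus. In the authors' deposited table, 7 of the 35 enzymes were called lower in it than in all other nuclei (0.621% of all genes) and 0 higher (4.61%). Those 7 were Hgd, Haao, Aadat, Bhmt2, Dmgdh, Nat8 and Dpys. The shares of calls are over all 24468 listed genes with no floor, while 31 of the 35 enzymes were at the floor. They are thus not matched for level.

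**Figure D2:**
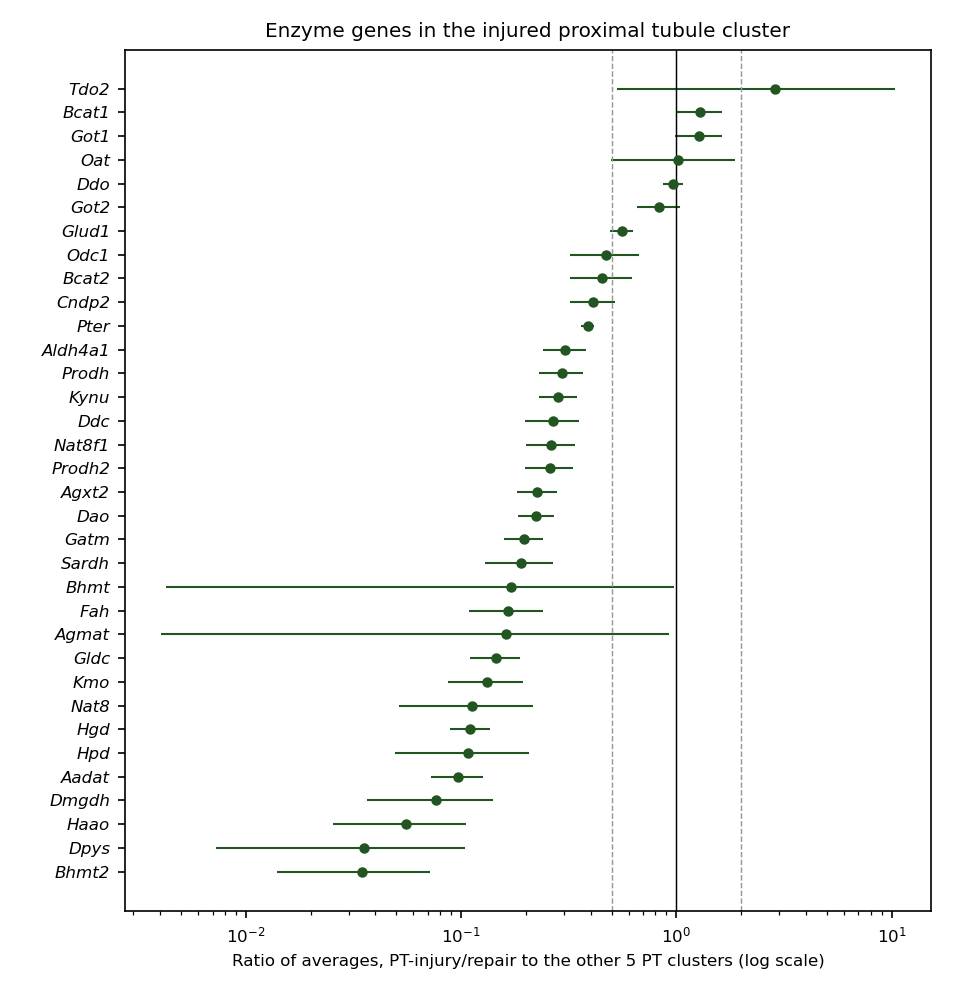
Points are the ratio of the average in PT-injury/repair to that over the other 5 PT clusters for each enzyme gene (log axis), and bars are 95% counting intervals. Dashed lines mark 0.5 and 2; 27 of 34 points lie left of 0.5, and Bhmt2 and Dpys are farthest left.

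The lowest ratios belonged to enzymes of several pathways. Bhmt2 had 7 UMIs in PT-injury/repair, an average of 0.00855 against 0.246 in the other clusters, or 28.8-fold lower (14 to 71.8). Its divergent neighbour Dmgdh averaged 0.0122 against 0.160, or 13.1-fold lower (7.09 to 27.3). Dpys was 28.2-fold lower (9.64 to 137) and Haao 18-fold lower (9.46 to 39.4). For Aadat the averages were 0.0647 and 0.670, for Hgd 0.107 and 0.974, and for Gldc 0.0696 and 0.480. The tyrosine enzymes were alike in this, with ratios of 0.108 for Hpd, 0.110 for Hgd and 0.165 for Fah. The proline enzymes Prodh, Prodh2 and Aldh4a1 had ratios of 0.293, 0.259 and 0.304.

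A further 6 enzymes had ratios between 0.5 and 2. Got1 averaged 0.0879 against 0.0689, a ratio of 1.28 (0.987 to 1.63), and Got2 had a ratio of 0.830 (0.654 to 1.04). Glud1 was the lowest of the 6, with a ratio of 0.558, and Ddo had a ratio of 0.965 and Oat of 1.01. Bcat1 averaged 0.0964 against 0.0747, a ratio of 1.29 (1.01 to 1.63), which lies between its very low level in PT-S1 and its level in PT-S3-1. It was the only gene here with an interval above 1. Tdo2 had a ratio of 2.88 on 3 UMIs (0.531 to 10.3), which its counts do not separate from 1.

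The proximal tubule pools, which may hold as few as 1 library of each group, set Cis9w beside CT9w. They cannot separate cisplatin from differences between animals or libraries. In Cis9w 2 of the 34 enzymes listed were called higher than in CT9w, Kynu and Gldc, and 1 lower, Bcat1. Of all 21312 genes 0.995% were called higher and 1.14% lower, which for 34 genes is less than 1 gene each way. Those shares use no floor, while 31 of the 34 enzymes were at the floor. The other 31 were not called, 18 of them with a deposited p of 1, and the lowest p among the 31 was 0.0747. By counting error alone, 13 of the 31 enzymes at the floor had a ratio with its interval above 1 (19.6% of all genes at the floor) and 14 below 1 (16.1%). More UMIs give narrower intervals, and 30 enzymes also reached a floor at the 75th percentile. The counts and shares are thus not matched for depth and cannot be read as an excess. The authors' deposited table gave the enzymes at the floor a median log2 fold change of -0.10, against 0.03 for all genes at the floor. Tdo2, Bhmt and Agmat lay below the floor, and Tat was not listed.

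**Figure D3:**
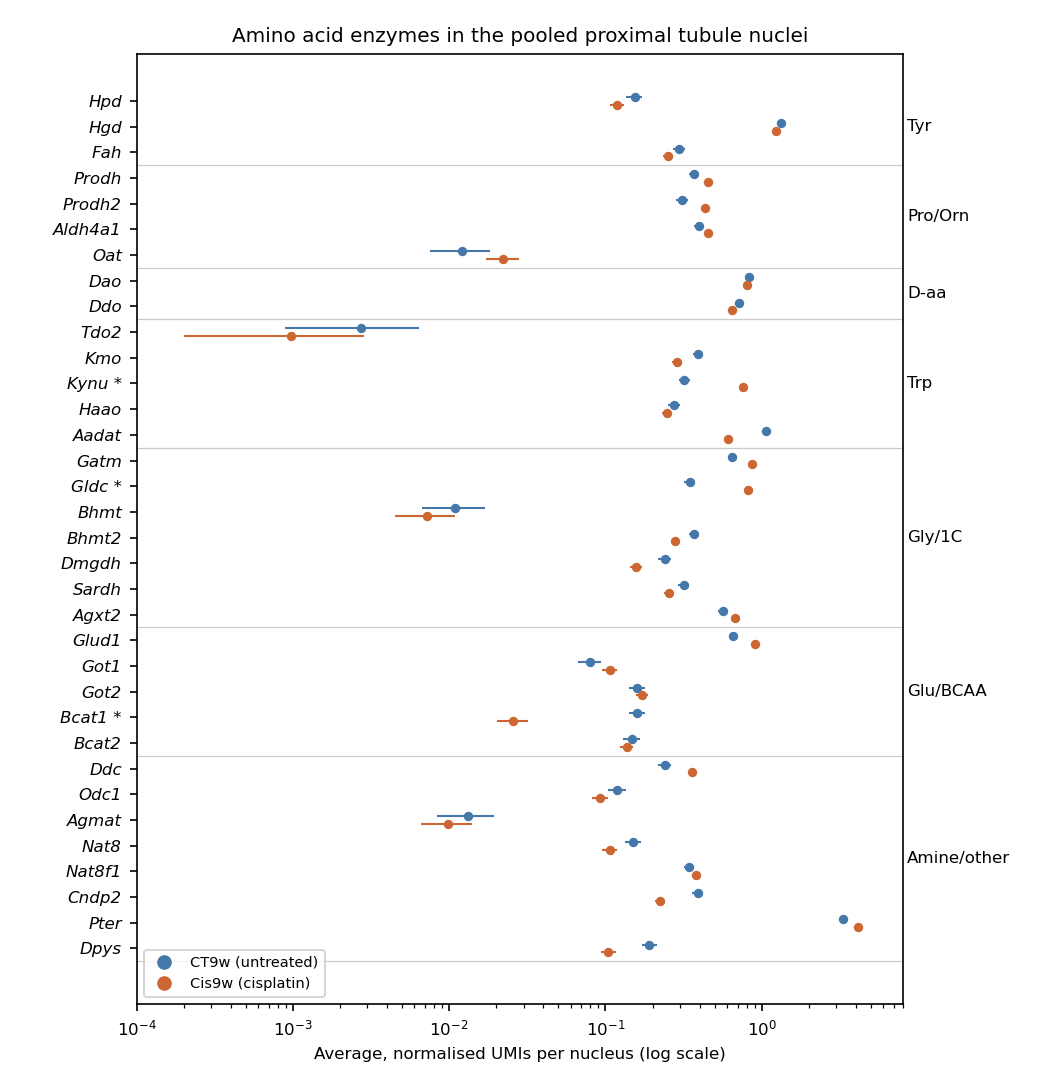
Points are the average of each enzyme gene in the proximal tubule pool of CT9w (blue) and Cis9w (orange), in normalised UMIs per nucleus on a log axis, grouped by role, with 95% counting intervals as bars. Asterisks mark the 3 called genes; Kynu and Gldc are to the right in Cis9w and Bcat1 far to the left, while most other pairs lie close together.

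Kynu rose in Cis9w. This gene (chr2:43555329-43682715, plus strand, GRCm38) had 584 UMIs in CT9w and 2331 in Cis9w, which are averages of 0.319 and 0.762. The level was 2.39-fold higher (2.18 to 2.62), with a log2 fold change of 1.26 and p = 0.00071 in the authors' deposited table. Kynureninase splits hydroxykynurenine and kynurenine and so draws them away from the other branches of the pathway.

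The other 4 tryptophan and kynurenine enzymes of the list had ratios below 1, and for Haao and Tdo2 the interval held 1. Genes of this pathway outside the list went both ways. Their log2 fold changes in the authors' deposited table included 0.70 for Acmsd and -0.97 for Ido2. Aadat, on the branch to kynurenic acid, had 1948 and 1872 UMIs, averages of 1.06 and 0.612 and a ratio of 0.575 (0.540 to 0.613). The authors' deposited table gave it a log2 fold change of -0.80 with p = 0.121, so it was not called. Kmo had 714 and 875 UMIs, averages of 0.390 and 0.286 and a ratio of 0.734 (0.664 to 0.811), with a deposited log2 fold change of -0.45 and p = 0.766 from the authors' deposited table. Haao had 501 and 752 UMIs, a ratio of 0.899 (0.802 to 1.01), and a log2 fold change of -0.15 with p = 1 in the authors' deposited table. Tdo2, which opens the pathway in liver, had only 5 and 3 UMIs.

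Gldc, of the glycine group, also rose. It lies at chr19:30098447-30175429 (minus strand) and had 633 UMIs in CT9w and 2491 in Cis9w, averages of 0.346 and 0.814. The level was 2.36-fold higher (2.16 to 2.57), with a log2 fold change of 1.24 and p = 0.00119 in the authors' deposited table. Gatm, which shares its steep first-segment pattern, had 1188 and 2636 UMIs, averages of 0.649 and 0.862 and a ratio of 1.33 (1.24 to 1.42). That change was not called, with a log2 fold change of 0.41 and p = 0.921 in the authors' deposited table. Agxt2 had 1029 and 2065 UMIs and a ratio of 1.20 (1.11 to 1.30), with a log2 fold change of 0.26 and p = 1 in the authors' deposited table.

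The methyl-group enzymes of the same list had ratios below 1 and were not called. Dmgdh had 437 and 482 UMIs, averages of 0.239 and 0.158 and a ratio of 0.660 (0.579 to 0.753), with a log2 fold change of -0.60 and p = 0.41 in the authors' deposited table. Its neighbour Bhmt2 had 676 and 858 UMIs and a ratio of 0.760 (0.686 to 0.842). Sardh had a ratio of 0.809 (0.726 to 0.902). Bhmt had only 20 and 22 UMIs, and its ratio of 0.659 has an interval from 0.343 to 1.27.

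Bcat1 fell. It lies at chr6:144993835-145076184 (minus strand) and had 292 UMIs in CT9w and 78 in Cis9w, averages of 0.159 and 0.0255. The level was 6.25-fold lower (4.86 to 8.13), with a log2 fold change of -2.63 and p = 2.3e-07 in the authors' deposited table. Bcat2, the mitochondrial enzyme of the same reaction, had 270 and 419 UMIs, averages of 0.147 and 0.137 and a ratio of 0.929 (0.795 to 1.09). The intervals of the 2 ratios do not overlap, so within these pools the cytosolic and mitochondrial genes differed by more than counting error.

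Glutamate dehydrogenase and the aspartate aminotransferases had ratios above 1, and for Got2 the interval held 1. Glud1 had 1197 and 2787 UMIs, averages of 0.653 and 0.911 and a ratio of 1.39 (1.30 to 1.49), with a log2 fold change of 0.48 and p = 0.717 in the authors' deposited table. Got2 had 291 and 524 UMIs and a ratio of 1.08 (0.932 to 1.25), with a log2 fold change of 0.11 and p = 1 in the authors' deposited table. Got1 had a ratio of 1.35 (1.10 to 1.65). None of these passed the call.

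All 4 proline and ornithine enzymes had ratios above 1, and 0 were called. Aldh4a1 had 726 and 1390 UMIs, averages of 0.396 and 0.454 and a ratio of 1.15 (1.05 to 1.26). Prodh had 676 and 1389 UMIs, averages of 0.369 and 0.454 and a ratio of 1.23 (1.12 to 1.35). The authors' deposited table gave them log2 changes of 0.20 and 0.30, each with p = 1. Prodh2 had 565 and 1330 UMIs and a ratio of 1.41 (1.28 to 1.56). Oat, on 22 and 68 UMIs, had averages of 0.012 and 0.0222 and a ratio of 1.85 (1.13 to 3.14), with a log2 fold change of 0.85 and p = 0.664 in the authors' deposited table.

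The tyrosine enzymes and the D-amino acid oxidases had ratios near or below 1. Hgd had 2413 and 3749 UMIs, averages of 1.32 and 1.23 and a ratio of 0.930 (0.884 to 0.979), or -0.10 as a log2 change by the authors' deposited table. Fah had 542 and 769 UMIs and a ratio of 0.849 (0.760 to 0.95), or -0.24 as a log2 change by the authors' deposited table. Hpd had a ratio of 0.773 (0.660 to 0.907). Dao had 1525 and 2468 UMIs, averages of 0.832 and 0.807 and a ratio of 0.969 (0.909 to 1.03), or -0.05 as a log2 change by the authors' deposited table. Ddo had 1313 and 1974 UMIs and a ratio of 0.900 (0.839 to 0.966), or -0.15 as a log2 change by the authors' deposited table. In the authors' deposited table p was 1 for all 5.

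Among the 8 enzymes of amines, acylated substrates and small peptides 0 were called, and their ratios ran from 0.546 to 1.5. Dpys had 350 and 319 UMIs, averages of 0.191 and 0.104 and a ratio of 0.546 (0.467 to 0.637). The authors' deposited table gave it -0.87 (log2 fold change) with p = 0.0747, the lowest p among enzymes not called. Cndp2 was close to it, with 711 and 683 UMIs, averages of 0.388 and 0.223, a ratio of 0.575 (0.517 to 0.640), and a log2 fold change of -0.80 with p = 0.076 in the authors' deposited table. Ddc had 437 and 1098 UMIs, averages of 0.239 and 0.359 and a ratio of 1.5 (1.35 to 1.68), with a log2 fold change of 0.59 and p = 0.508 in the authors' deposited table. Pter had 6031 and 12582 UMIs, averages of 3.29 and 4.11 and a ratio of 1.25 (1.21 to 1.29), with a log2 fold change of 0.32 and p = 1 in the authors' deposited table. Nat8f1 had 627 and 1168 UMIs and a ratio of 1.12 (1.01 to 1.23), with a log2 fold change of 0.16 and p = 1 in the authors' deposited table. Nat8 had a ratio of 0.710, Odc1 of 0.772 and Agmat, on 24 and 30 UMIs, of 0.748. Odc1 is the androgen-responsive enzyme that makes putrescine.

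The direction in Cis9w went with the place along the tubule, among these enzymes as among all genes. Of the 9 enzymes at the floor that were at least 2-fold higher in PT-S3-2 than in PT-S1, 8 had a deposited log2 fold change below 0 in the authors' deposited table. Their median was -0.49, and the exception was Pter at 0.32. Of the 8 at least 2-fold higher in PT-S1, 7 were above 0, with a median of 0.46, and the exception was Odc1 at -0.37. The 14 within 2-fold had a median of -0.07. All genes at the floor, divided the same way, had medians of -0.29, 0.21 and 0.04 over 1057, 987 and 8596 genes. Of these, 71.2%, 29.2% and 43.7% were below 0 in the authors' deposited table, so the split by direction is shared with genes at large. Across the 31 enzymes the log2 ratio of PT-S3-2 to PT-S1 and the deposited log2 fold change had a Pearson r of -0.82 and a Spearman rho of -0.77. Without Bcat1 r was -0.76, and without the 3 called genes r was -0.66 over 28. Over 10640 genes r was -0.30. These are correlations across genes, which are not independent replicates and which may share libraries and nuclei between the tables.

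**Figure D4:**
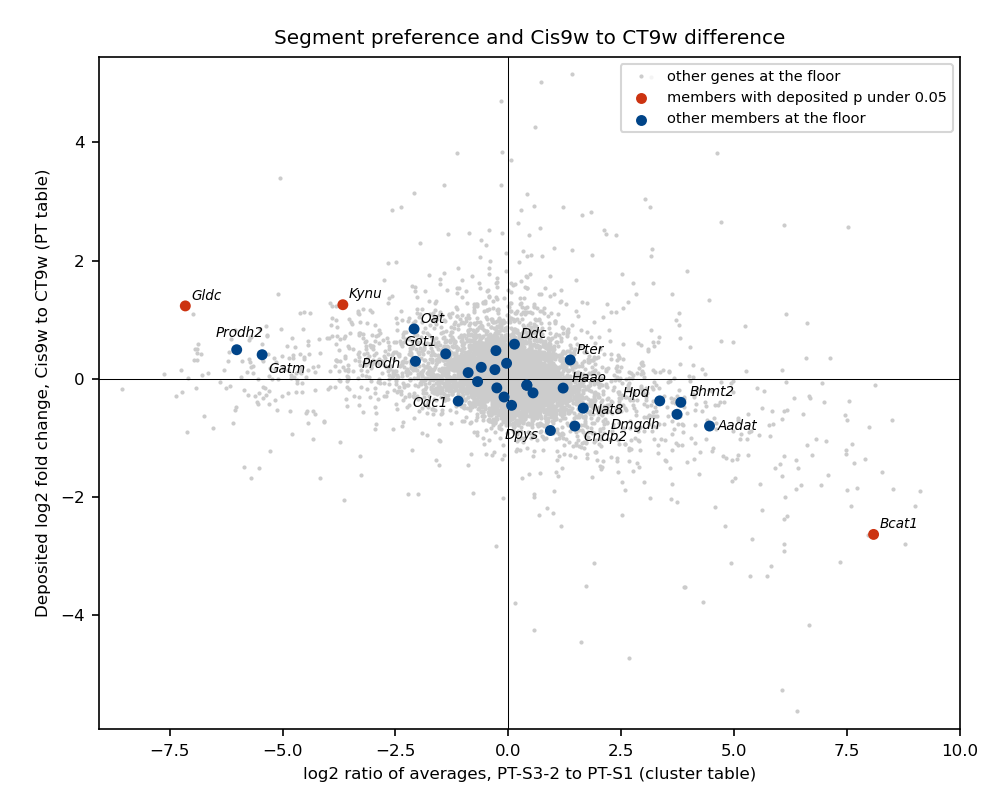
Each point is a gene at the floor, with the log2 ratio of its averages in PT-S3-2 and PT-S1 on the horizontal axis and the deposited log2 fold change of Cis9w against CT9w on the vertical axis. Enzymes are coloured, red where called; Gldc, Prodh2 and Gatm lie at the upper left and Bcat1 at the lower right.

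Markers of segment, injury and sex moved between the pools as well. Their lists were chosen with earlier results of these data known, so the calls are a description and not independent evidence. Of all genes, 0.995% were called higher and 1.14% lower. Of 10 third-segment markers, 6 were called lower in Cis9w and 0 higher, and their summed average was 16.8 in CT9w and 7.23 in Cis9w. The 4 not called were Slc5a8, Napsa, Slc6a18 and Slc5a10. Their log2 fold changes in the authors' deposited table were -0.68, -0.22, -0.15 and 0.04, so the fall was not shared by all 10. The 8 first-segment markers had 0 calls, with sums of 20.8 and 23.8. Of 13 injured-tubule markers, 9 were called higher, with sums of 1.00 and 2.91, and Krt20, Sox9 and Lcn2 were at 0 UMIs in CT9w. Of 9 genes known to be higher in male mouse kidney 8 were called lower, with sums of 23.1 and 8.39, and of 3 known to be higher in females 3 were called higher, with sums of 0.264 and 1.61. The third-segment and male-biased lists share Slc7a13, Slc22a30, Cyp7b1 and Acsm3, all called lower, so they are 4 of the 6 third-segment calls and 4 of the 8 male-biased calls. Mitochondrially encoded genes had 2 of 13 called lower, with sums of 2.43 and 1.62. The part of these in the enzyme values was not tested. Neither table divides CT9w and Cis9w by segment, so fewer nuclei of a segment in the pool and less RNA in each of them cannot be told apart.

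Markers of other cell types were summed in the same pools. Endothelial markers summed to 0.372 in CT9w and 0.612 in Cis9w, with 0 of 8 called. Immune markers summed to 0.117 and 0.0847, and fibroblast and mesangium markers to 0.0311 and 0.0441 (Col1a1 at 0 in CT9w), with 0 called in either. Principal cell markers summed to 0.0764 and 0.137 with 2 of 7 called higher, intercalated cell markers to 0.0546 and 0.129 with 0 of 7, and podocyte markers to 0.34 and 0.411 with 1 of 8 higher. Thick ascending limb markers summed to 3.66 and 3.42 and those of distal convoluted tubule to 1.24 in both pools, with 0 called. For the enzymes with their highest level in those distal clusters (Ddo, Bcat2, Got1 and Got2), the part of such RNA was not tested.

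Of 111 further enzymes of amino acid metabolism 106 were listed in the proximal tubule table. Among them 1 was called higher and 2 lower, counts near the 0.995% and 1.14% of all genes, and the 85 at the floor had a median log2 change of -0.14 by the authors' deposited table. Bbox1, the last enzyme of carnitine synthesis from trimethyllysine, rose from 25 to 147 UMIs, 3.52-fold (2.29 to 5.62), with a log2 fold change of 1.77 and p = 0.00493 in the authors' deposited table. Ido2, which catalyses the same opening step of tryptophan breakdown as Tdo2, fell from an average of 0.141 to 0.0719, 1.96-fold (1.63 to 2.36; p = 0.0271 in the authors' deposited table). Acy3, an aminoacylase that deacetylates mercapturates, fell from 0.421 to 0.227, 1.85-fold (1.67 to 2.05; p = 0.0294 in the authors' deposited table). Ido2 averaged 0.00333 in PT-S1 and 0.183 in PT-S3-2, and Acy3 0.0774 and 0.38, so both were higher in PT-S3-2 than in PT-S1. Bbox1 was too, at 0.0107 and 0.0609, and had the opposite direction in Cis9w.

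Some of the enzymes share sequence with other genes, and their counts are less certain. The share of 31-base windows of the transcripts found in another gene's transcripts was 31.3% for Odc1 (processed copies), 31% for Aldh4a1 (the overlapping Gm21969), 29.8% for Bhmt, 22.0% for Nat8f1 and 20.3% for Got2. It was 0.491% for Kynu, 2.67% for Gldc and 0.182% for Bcat1. Oat lies within the span of Fgfr2 on the same strand, and Fgfr2 had 2780 and 4377 UMIs in the pools. Hpd lies within the span of Gm26745 on its own strand, which has no UMI values here. No source used here says whether strand was counted, so genes on the opposite strand may share UMIs. Among them are 1700042O10Rik with Ddc (110 and 369 UMIs), Sardhos with Sardh (234 and 519) and 0610005C13Rik with Bcat2 (1600 and 3122). Others include Psmd9 with Hpd (251 and 482) and Tprkb with Nat8f1 (721 and 1423). Bcat1's antisense genes had at most 2 UMIs in a pool.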

How the data were processed

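Nuclei were isolated by homogenisation and straining and captured with a droplet 3′ kit, per the labels' protocols. The submitters' processing notes name Cell Ranger 5.0.1 and mm10. Not given in the sources used here are the clustering, the filters on nuclei, the handling of doublets and free RNA, and the test and adjustment behind the p-values. Deposited averages are UMIs per nucleus, a signal scaled by the authors so that columns of a table share a total (2797 for proximal tubule, 2008 for clusters); no level was set against one from the other table. The log2 fold changes and p-values are the authors' own, per the file headers.

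Averages are whole multiples of a step that is worth 1 UMI (99.9953% or more of genes in a column to 0.1 UMI), which gave back the UMI sums. The recovery and the intervals were tested on simulated Poisson counts. Those counts hold no spread between nuclei or animals, so the test says nothing about such spread. Samples were not tested, because each group has 1 column; whether 1 or 2 libraries a group entered the proximal tubule table is unknown. Genes at the expression floor had a mean of CT9w and Cis9w averages at or above its median over genes (0.0154, 10656 genes), or likewise for the mean of the 17 averages in the cluster table (0.0107, 12234 genes). Symbols are the authors', and of 21312 and 24468 gene IDs 21288 and 24432 matched GENCODE M21. Full values were given to called enzymes, to those with a ratio of at least 1.5 or at most its inverse with an interval that leaves out 1, and to up to 2 further enzymes per role with the most UMIs. Other enzymes of the pathway were named where called. The enzymes, lists and rules were chosen with earlier results of these data known. Other settings were stricter p and fold thresholds, another floor, a pseudocount, the mean for the median, totals without mitochondrial genes and other cluster comparisons. Python 3.11.15, pandas 2.3.3 and scipy 1.17.1 were used.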

Additional observations from a re-analysis of the deposited data

How the results depend on the processing

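No paired analysis was possible because no column carries a replicate number and each group has 1 pooled column. Leaving out a replicate could not be run for the same reason. Kynu and Gldc stayed called higher and Bcat1 lower under every alternative tried (p under 0.01, log2 fold change of at least 1, both floors, median subtracted). No setting recomputed a deposited p, and the floors remove only genes with low averages. The median log2 fold change of the enzymes ranged from -0.14 to -0.06. All 34 ratios stayed within their counting intervals under 3 alternatives each, and 0 crossed 1. These alternatives could change the ratios only slightly, so the result says little about how firm they are. Leaving out mitochondrial genes shifted log2 values by -0.000413, and the pseudocount was 0.000546. Of the further enzymes, the count called higher went from 1 to 0 when the floor was raised to the 75th percentile, since Bbox1 lies below it, and the count called lower went from 2 to 0 at p under 0.01 and to 0 where the log2 change had to reach 1. Enzymes 2-fold lower in PT-injury/repair numbered 15 in place of 27 when each of the other 5 clusters had to be 2-fold apart. The count 2-fold higher, Tdo2 alone, went from 1 to 0 under that rule and to 0 with a pseudocount. Counts for the highest cluster (25 to 27) and for PT-S3-2 (10 to 13) moved less. Depth limits Tat, Tdo2, Bhmt, Agmat and Oat, and no setting here adds a spread between animals.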
